A study of Mus musculus with 21 samples.

Results

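Transcript levels of 10 genes of the hypoxia-inducible factor (HIF) pathway were examined in mouse hematopoietic stem cells (HSCs), out of 21000 gene symbols in the count table. The genes were Hif1a, Epas1 and Arnt, which encode HIF subunits, Vhl, Egln1 and Egln3, which act in HIF degradation, and Vegfa, Bnip3, Ndrg1 and Ak4, which are known HIF targets. They were taken by symbol and chosen by pathway together with their normalized levels in all 7 groups, with earlier results of these data known. Their levels and differences are therefore given as a description and carry no test.

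RNA sequencing covered 21 libraries from wild type mice, 3 in each of 7 groups, and each library was made from 3000–3500 sorted CD150+CD48- HSCs. Mice that were 10 weeks old at the start received PBS or 5-fluorouracil (5-FU), a cytotoxic drug after which HSCs enter the cell cycle, by intraperitoneal injection, and the 5-FU dose was 150 mg/kg. The groups PBS-1 d6 and 5FU-1 d6 were given 1 administration and analysed on day 6, and PBS-3 d6 and 5FU-3 d6 were given 3 administrations at 21-day intervals and analysed on day 6 after the last. The groups 5FU-1 d21 and 5FU-3 d21 were analysed on day 21, and the group old fresh came from untreated mice of 2 years. The replicates were described as independent experiments.

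HIF is a transcription factor made of an oxygen-labile alpha subunit and the stable partner ARNT. When oxygen is present, prolyl hydroxylases of the EGLN family mark the alpha subunit, and the VHL ubiquitin ligase binds the marked protein for degradation. This control acts on protein, so transcript levels of the subunits do not measure HIF activity. HSCs reside in a bone marrow of low oxygen, and HIF is known there for its link to glycolytic metabolism and quiescence.

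Libraries held between 22184885 and 38649033 counts (median 26962256), and a signal of 3 counts corresponded to between 0.0776 and 0.135 CPM, that is, counts scaled to the library total. All 12 HSC markers reached a mean of 1 CPM, and their sum was 4021–4613 normalized CPM in both PBS groups, 3331–3512 in 5FU-1 d6, 2991–3048 in 5FU-3 d6, and 4002–4855 in the other groups. Kit, the receptor used in the sort, had a mean of 1081 normalized CPM in PBS-1 d6 against 592 in 5FU-1 d6, and 1015 in PBS-3 d6 against 750.3 in 5FU-3 d6. At this time after 5-FU the gate was widened to c-Kit-dim cells and the Mac-1 antibody was left out, so treatment and gate cannot be told apart on day 6. The sum of 8 erythroid markers, of which 7 reached a mean of 1 CPM, was 30.0–48.2 in the PBS groups, 104–114 in 5FU-1 d6, 48.5–64.7 in 5FU-3 d6 and 63.3–169 in old fresh. The 12 myeloid markers, including Itgam of the Mac-1 complex, summed to 89.9–141 in the PBS groups and 52.7–76.3 in the 5-FU groups on day 6, and the 6 stromal markers to 29.0–57.2 and 6.14–25.8. Of the stromal markers, only Pdgfrb had a lower mean in 5FU-3 d6 than in PBS-3 d6. The 5 megakaryocyte markers summed to 114–138 in the PBS groups, 33.9–42.8 in 5FU-1 d6 and 80.0–85.6 in 5FU-3 d6, the 6 endothelial markers to 32.0–48.0 in all groups, and the 7 lymphoid markers to at most 5.17. Cd8a and Bglap had 0 counts in all libraries. The part of these cell types in the differences described here was not tested, and in bulk libraries fewer cells of a type and less RNA per cell cannot be told apart.

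The promoters of the members show where the core letters that HIF recognizes, ACGTG or GCGTG, lie near the start sites. RefSeq promoters on GRCm38.p6 were found for 8 of the 10 genes, and those of Epas1 and Ndrg1 are not shown. Both strands of the 250 bases before each start were searched, and a palindrome such as CACGTG counted as 2 matches. No other bases were searched, so a count of none holds for the window only. The promoter of Bnip3 held 5 matches, Hif1a 3, Ak4 and Egln1 2 each, Arnt and Egln3 1 each, and Vegfa and Vhl none, so that 6 of 8 held a match. Of 27025 promoters of the same length, 38.6% held at least 1 match, 16.8% at least 2, 6.73% at least 3, and 1.01% at least 5. These promoters were not matched for base composition, although every match contains the letters CG. The share of G and C in the windows of the members ranged from 50.8% in Egln3 to 86% in Egln1. The Hif1a window (chr12:73907617-73907866) lies inside the gene as annotated by GENCODE. The sequences of Ak4 (chr4:101419039-101419288, plus strand), Bnip3 (chr7:138909507-138909756, minus strand) and Vegfa (chr17:46032378-46032627, minus strand) are printed 5′ to 3′ with matches in capitals, because Ak4 and Vegfa had the largest differences on day 21 after 1 administration and Bnip3 the most matches.
Ak4: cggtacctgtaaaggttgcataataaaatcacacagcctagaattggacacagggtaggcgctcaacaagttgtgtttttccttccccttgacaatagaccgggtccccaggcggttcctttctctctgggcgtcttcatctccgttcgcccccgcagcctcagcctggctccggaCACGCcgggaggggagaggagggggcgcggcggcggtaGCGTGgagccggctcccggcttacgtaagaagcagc
Bnip3: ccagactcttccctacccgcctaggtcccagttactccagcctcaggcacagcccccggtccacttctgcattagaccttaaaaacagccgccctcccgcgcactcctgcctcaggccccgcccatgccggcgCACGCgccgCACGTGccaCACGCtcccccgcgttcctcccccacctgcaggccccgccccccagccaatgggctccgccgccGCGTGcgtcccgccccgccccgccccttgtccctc
Vegfa: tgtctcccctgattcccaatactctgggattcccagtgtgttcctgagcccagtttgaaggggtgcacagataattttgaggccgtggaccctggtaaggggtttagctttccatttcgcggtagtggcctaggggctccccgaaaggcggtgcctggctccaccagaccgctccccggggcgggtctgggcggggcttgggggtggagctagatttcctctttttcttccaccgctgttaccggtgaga
The letters describe these windows and say nothing of binding in HSCs.

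**Figure D1:**
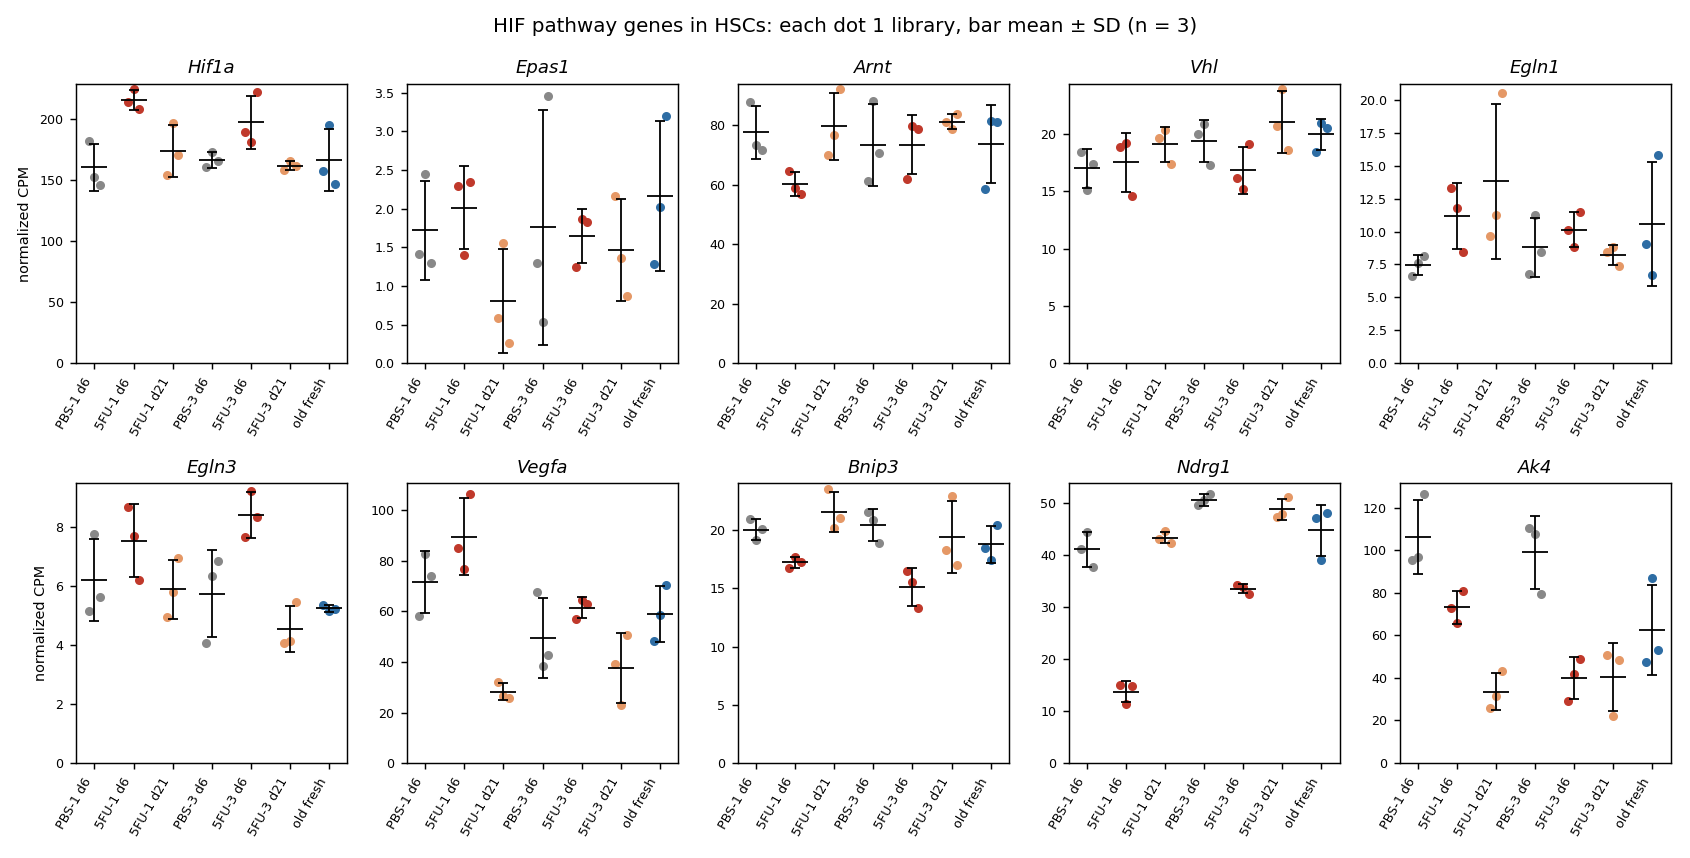
Normalized CPM of the 10 HIF pathway genes (y axes, linear, from 0) in the 7 groups (x axes). Each dot is 1 library and bars are mean ± SD (n = 3). The libraries of 5FU-1 d6 lie lowest for Ndrg1, at 11.4 to 15 normalized CPM, and those of 5FU-1 d21 lie below both PBS groups for Ak4 and Vegfa.

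In PBS-treated HSCs the members spanned a wide range. On the scale of normalized CPM per kilobase of the longest transcript, the level in PBS-1 d6 was 33.9 ± 4.01 (SD, n = 3) for Hif1a, 24.4 ± 3.97 for Ak4, 20.8 ± 3.57 for Vegfa and 17.9 ± 2.05 for Arnt. The libraries of Ak4 and Vegfa overlapped, as did those of Vegfa and Arnt, while Hif1a lay above all of them. Bnip3 followed at 11.4 ± 0.513 and Ndrg1 at 10.1 ± 0.832, with libraries that overlapped (10.9–11.9 and 9.30–11), and then Vhl at 6.09 ± 0.609. Egln3 (2.33 ± 0.524) and Egln1 (2.08 ± 0.213) overlapped, and Epas1 was lowest at 0.311 ± 0.115. Over all 21 libraries, Hif1a ranged from 31.0 to 47.6 normalized CPM per kilobase and Ak4 from 5.08 to 28.9.

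The alpha subunit gene Hif1a (GRCm38 chr12:73901375-73947530, plus strand) was the member with the highest level. It was at 182, 153 and 146 normalized CPM in PBS-1 d6 and at 214, 225 and 208 in 5FU-1 d6. Every library of 5FU-1 d6 was above every library of PBS-1 d6, and the log2 difference was 0.44 ± 0.094 (SE). After 3 administrations the levels were 160.4, 173 and 166 in PBS-3 d6 and 189, 181 and 222 in 5FU-3 d6, again without overlap, with a log2 difference of 0.24 ± 0.095. In 5FU-1 d21 (154, 197 and 170.4), 5FU-3 d21 (158, 166 and 162) and old fresh (158, 195 and 147), Hif1a overlapped its controls. Of the 75-base windows of its longest transcript, 5.68% also occur in other annotated genes, and 5.60% of its exonic bases lie opposite an antisense gene.

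Epas1, which encodes the alpha subunit HIF-2α (chr17:86753700-86833410, plus strand), was expressed near the low end. It was at 1.41, 2.45 and 1.29 normalized CPM in PBS-1 d6 and at 1.29, 0.530 and 3.45 in PBS-3 d6. The 7 group means lay between 0.804 and 2.17 normalized CPM, and the groups overlapped in each of the 5 comparisons with PBS. The lowest mean was that of 5FU-1 d21 (0.588, 1.56 and 0.268), and its log2 difference from PBS-1 d6 was -1.09 ± 0.743, which moved to -2.0 without replicate 2 of 5FU-1 d21. Arnt2, a paralog of Arnt, had 0 counts in PBS-1 d6.

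Arnt (chr3:95434388-95497240, plus strand), the stable partner, was at 87.8, 73.4 and 71.6 normalized CPM in PBS-1 d6 and at 64.8, 58.9 and 56.9 in 5FU-1 d6. The groups did not overlap, and the log2 difference was -0.36 ± 0.102. After 3 administrations the means were the same to 3 digits, at 73.5 ± 13.7 in PBS-3 d6 and 73.5 ± 9.99 in 5FU-3 d6 (SD, n = 3). Arnt overlapped its controls on day 21 and in old fresh, with group means from 73.6 to 81.2 normalized CPM.

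Vhl (chr6:113623959-113631633, plus strand), the substrate-binding subunit of the ubiquitin ligase, varied little. Its 21 libraries lay between 14.6 and 23.9 normalized CPM, and the groups overlapped in all 5 comparisons with PBS, with log2 differences from -0.21 to 0.17. Egln1 (chr8:124908587-124949324, minus strand), the main HIF prolyl hydroxylase, was at 6.66, 7.60 and 8.18 normalized CPM in PBS-1 d6 and at 13.3, 11.8 and 8.45 in 5FU-1 d6. The lowest 5-FU library was just above the highest PBS library, and the log2 difference was 0.59 ± 0.191. In 5FU-1 d21 Egln1 was at 9.65, 11.3 and 20.5, above PBS-1 d6 by a log2 difference of 0.88 ± 0.287, which was 0.48 at its lowest when a library was left out. With PBS-3 d6 as control of 5FU-1 d21 the log2 difference of Egln1 was 0.64 ± 0.319, and the groups overlapped. The levels after 3 administrations overlapped (6.81, 11.2 and 8.43 in PBS-3 d6, and 10.1, 8.82 and 11.5 in 5FU-3 d6).

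Egln3 (chr12:54178981-54203860, minus strand) is a prolyl hydroxylase gene that is itself a HIF target, and its groups stood apart on day 6 in the other round. It was at 5.17, 7.79 and 5.64 normalized CPM in PBS-1 d6 and at 8.67, 7.72 and 6.22 in 5FU-1 d6, which overlapped. After 3 administrations it was at 4.07, 6.33 and 6.86 in PBS-3 d6 and at 7.68, 9.22 and 8.36 in 5FU-3 d6, without overlap (log2 difference 0.54 ± 0.227). The difference between the log2 differences of the rounds was 0.26 ± 0.320 for Egln3 and -0.38 ± 0.295 for Egln1. Egln2, the remaining family member, stood at 76.0 ± 4.75 normalized CPM in PBS-1 d6 and 86.9 ± 0.974 in 5FU-1 d6 (SD, n = 3), and its difference did not pass the test (edgeR adjusted p = 0.0834).

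Ndrg1 (chr15:66929318-66969640, minus strand), a stress-responsive gene linked to growth arrest and differentiation, had the largest day 6 difference after 1 administration. It was at 41.2, 44.4 and 37.7 normalized CPM in PBS-1 d6 and at 15, 11.4 and 14.9 in 5FU-1 d6. Every 5-FU library was below every PBS library, with a log2 difference of -1.57 ± 0.127, or 0.337-fold, and between -1.63 and -1.45 when any library was left out. After 3 administrations Ndrg1 was at 49.6, 50.6 and 51.8 in PBS-3 d6 and at 34.3, 33.9 and 32.5 in 5FU-3 d6. These groups also stood apart, but the log2 difference was -0.60 ± 0.072, or 0.661-fold. The log2 difference in round 3 minus that in round 1 was 0.98 ± 0.144.

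On day 21 Ndrg1 lay near its controls. It was at 43.2, 44.6 and 42.3 normalized CPM in 5FU-1 d21 and at 47.2, 48.0 and 51.1 in 5FU-3 d21, and both overlapped PBS. With PBS-3 d6 in place of PBS-1 d6 as the control of 5FU-1 d21, the log2 difference was -0.23 in place of 0.08 and the groups stood apart, since PBS-3 d6 was itself above PBS-1 d6. In old fresh it was at 47.2, 39.1 and 48.0, below each library of PBS-3 d6, with a log2 difference of -0.18 ± 0.109. An antisense gene lies opposite 8.43% of its exonic bases.

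The Ndrg paralogs were present at higher levels per kilobase than Ndrg1 in PBS-1 d6, at 139 ± 16.4 normalized CPM per kilobase for Ndrg2 and 123 ± 17.7 for Ndrg3 (SD, n = 3). Ndrg2 fell after 5-FU in both rounds, by 0.45 on the log2 scale in round 1 (SE 0.131, edgeR adjusted p = 0.0474) and by 0.64 in round 3 (SE 0.069, edgeR adjusted p = 0.00283). The round 1 call was lost without any 1 of 5 libraries, with adjusted p from 0.0657 to 0.138. Ndrg2 rose in old fresh, from 369, 383 and 345 normalized CPM in PBS-3 d6 to 563, 539 and 507 (log2 difference 0.55 ± 0.073, edgeR adjusted p = 0.0204). That call was lost without any 1 library, with adjusted p from 0.0525 to 0.0979. Ndrg3 did not pass the test in any comparison, and Ndrg4 ranged from 0 to 41.4 normalized CPM within the series.

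Bnip3 (chr7:138890836-138909519, minus strand), a mitochondrial protein of mitophagy and cell death, was modestly lower on day 6. It was at 20.9, 19.1 and 20.1 normalized CPM in PBS-1 d6 and at 16.7, 17.7 and 17.3 in 5FU-1 d6 (log2 difference -0.21 ± 0.084). It was at 21.5, 20.9 and 18.8 in PBS-3 d6 and at 16.5, 15.5 and 13.3 in 5FU-3 d6 (log2 difference -0.44 ± 0.113). Neither pair of groups overlapped, and the day 21 and old groups overlapped their controls. These values are uncertain, since 46.3% of the 75-base windows of Bnip3 also occur in pseudogenes or an antisense gene, and how reads with several alignments were counted is not given in the sources used here. The related Bnip3l was at 54.7 ± 2.32 normalized CPM in PBS-1 d6 and 49.3 ± 2.50 in 5FU-1 d6 (SD, n = 3), and did not pass the test in any comparison.

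Vegfa (chr17:46016993-46032369, minus strand), which encodes an angiogenic growth factor and is a classical HIF target, differed on day 21 after 1 administration. It was at 58.3, 82.6 and 73.9 normalized CPM in PBS-1 d6, at 85.1, 76.9 and 106 in 5FU-1 d6, and at 32.2, 26.5 and 25.9 in 5FU-1 d21. The day 6 groups overlapped (log2 difference 0.33 ± 0.161), whereas all day 21 libraries were below all PBS-1 d6 libraries, with a log2 difference of -1.35 ± 0.153, or 0.393-fold. With PBS-3 d6 as control (67.8, 38.3 and 42.8) this log2 difference shrank to -0.82 ± 0.221, and the groups still stood apart.

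After 3 administrations no such separation of Vegfa was present. It was at 57.0, 64.6 and 63.0 normalized CPM in 5FU-3 d6, at 39, 23.0 and 50.5 in 5FU-3 d21 and at 48.2, 58.4 and 70.2 in old fresh, and each group overlapped PBS-3 d6. The log2 difference of 5FU-3 d21 from PBS-3 d6 was -0.41 ± 0.316. Among the paralogs, Vegfc rose in 5FU-1 d6 by a log2 difference of 0.55 ± 0.160 (edgeR adjusted p = 0.0473), a call lost in 10 of 12 alternatives, with adjusted p up to 0.136. It held by DESeq2 and without replicate 2 of 5FU-1 d6. Vegfb did not pass the test in any comparison.

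Ak4 (chr4:101419277-101466995, plus strand), a nucleotide kinase of the mitochondrial matrix, was lower than PBS in each 5-FU group. It was at 95.6, 97.0 and 126 normalized CPM in PBS-1 d6 and at 73.1, 65.6 and 81.0 in 5FU-1 d6. After 3 administrations it was at 110.4, 107 and 79.3 in PBS-3 d6 and at 29.0, 42.0 and 48.8 in 5FU-3 d6. In both rounds every 5-FU library was below every PBS library, and the log2 difference was -0.52 ± 0.133 (0.695-fold) in round 1 and -1.31 ± 0.210 (0.402-fold) in round 3. The round 3 difference minus the round 1 difference was -0.78 ± 0.270, in the direction opposite to that of Ndrg1.

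Unlike Ndrg1, Ak4 was also low on day 21. It was at 26.0, 31.6 and 43.2 normalized CPM in 5FU-1 d21 (log2 difference from PBS-1 d6 -1.66 ± 0.204, 0.316-fold) and at 50.8, 22.2 and 48.3 in 5FU-3 d21 (log2 difference from PBS-3 d6 -1.30 ± 0.306, 0.406-fold). All day 21 libraries were below all PBS libraries of both rounds, and with PBS-3 d6 as control the 5FU-1 d21 difference was -1.56 ± 0.213. Leaving out any 1 library kept the day 21 differences between -1.89 and -1.51 after 1 administration and between -1.49 and -1.0 after 3. In old fresh Ak4 was at 47.5, 86.9 and 53.1, and 1 old library was above the lowest PBS-3 d6 library (log2 difference -0.67 ± 0.235).

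Ordered by mean, Ak4 was at 106 ± 17.3 normalized CPM in PBS-1 d6, 99.1 ± 17.2 in PBS-3 d6, 73.2 ± 7.70 in 5FU-1 d6, 62.5 ± 21.3 in old fresh, 40.4 ± 15.8 in 5FU-3 d21, 39.9 ± 10.0 in 5FU-3 d6 and 33.6 ± 8.80 in 5FU-1 d21 (SD, n = 3). The libraries of all neighbours in this order overlapped, and so did the last 3 groups with one another. The day 6 groups of the 2 rounds after 5-FU did not overlap (65.6 to 81.0 and 29.0 to 48.8), while the day 21 groups did. Of the 75-base windows of Ak4, 9.61% also occur in the pseudogene Ak3l2-ps.

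**Figure D2:**
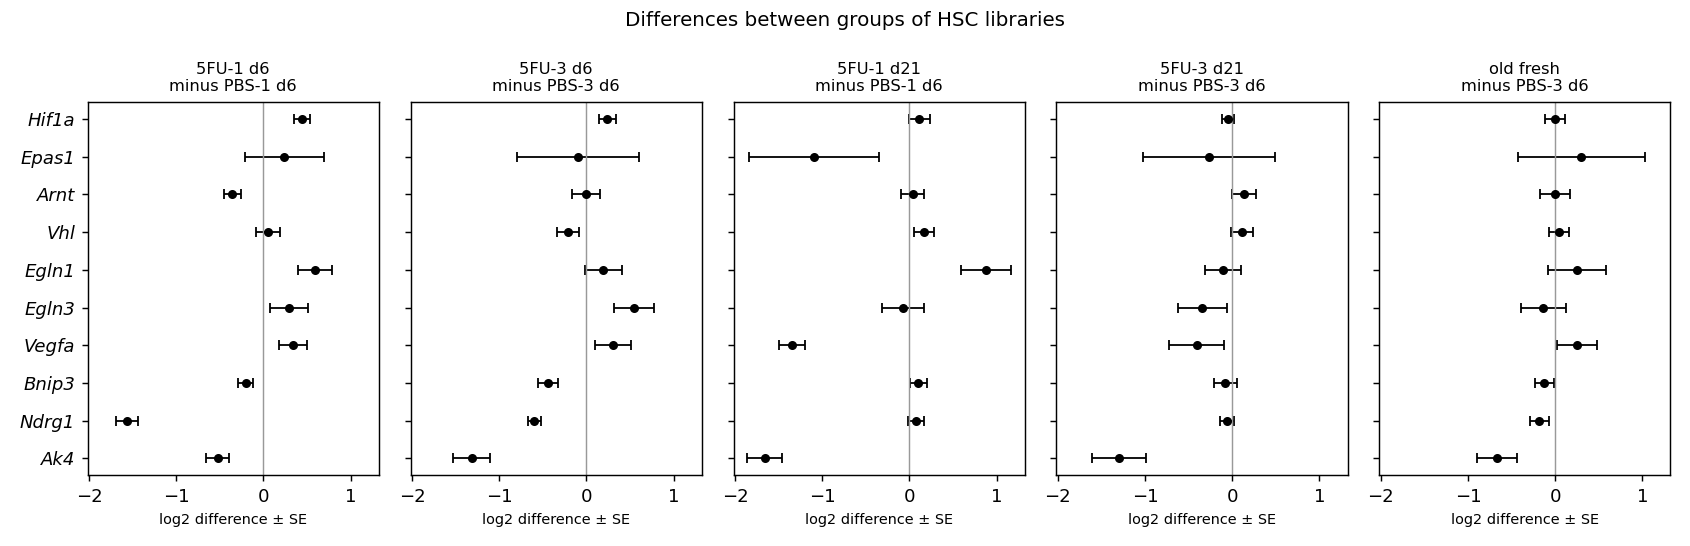
Log2 difference ± SE (x axes) of the 10 genes (rows) in 5 comparisons with PBS (panels). Ndrg1 stands furthest below 0 in 5FU-1 d6 minus PBS-1 d6, at -1.57, while Ak4 is below 0 in all 5 panels.

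The day 21 groups were compared with PBS on day 6, so that time since administration differs as well as treatment. The old fresh mice were untreated, whereas those of PBS-3 d6 received 3 administrations of PBS, so age and injection cannot be told apart in that comparison. PBS-1 d6 served as control for 2 comparisons and PBS-3 d6 for 3, which are not independent of each other. The column names of PBS-1 d6 and 5FU-1 d6 (6 libraries) end in an added label of unknown meaning, which those of the remaining 15 libraries do not have. The comparison of 5FU-1 d21 with PBS-1 d6 crosses this division, whereas both groups of the other 4 comparisons with PBS lie on the same side. The difference between rounds sets the groups of one side against those of the other, and the rounds also differ in the age of the mice. For every gene, these cannot be told apart from the number of administrations.

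All 10 genes passed the filter on low counts in every fit, and their counts past an edgeR adjusted p of 0.05 are given beside those of all genes. In 5FU-1 d6, 1 member was past it upward (Hif1a) and 3 downward (Arnt, Ndrg1 and Ak4), against 11.5% and 10.6% of 12759 genes. In 5FU-3 d6, 0 were past it upward and 3 downward (Bnip3, Ndrg1 and Ak4), against 9.84% and 8.3% of 12729 genes. At an unadjusted p of 0.05, 6 and 5 members were past the threshold in these comparisons, against 37.6% and 32.9% of all genes in either direction. DESeq2 called 4 and 3, against 28.9% and 26.4% of all genes. For the difference between rounds, 1 was past it upward (Ndrg1) and 0 downward, against 0.34% and 0.31% of 13227 genes.

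In 5FU-1 d21, 0 members were past the threshold upward and 2 downward (Vegfa and Ak4), against 0.0712% and 0.15% of 12647 genes. In 5FU-3 d21, 0 were past it in either direction by edgeR, against 0.0396% upward and 0.00792% downward of 12632 genes. There, 1 was past an unadjusted p of 0.05 (13.7% of all genes in either direction) and 1 was called by DESeq2 (4.69%). In old fresh, 0 were past it by edgeR, against 0.553% upward and 0.444% downward of 12847 genes, 1 was past an unadjusted p of 0.05 (11.2% of all genes) and 0 were called by DESeq2 (4.43%). Since the levels in these groups chose the members, nothing is read from their counts.

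**Figure D3:**
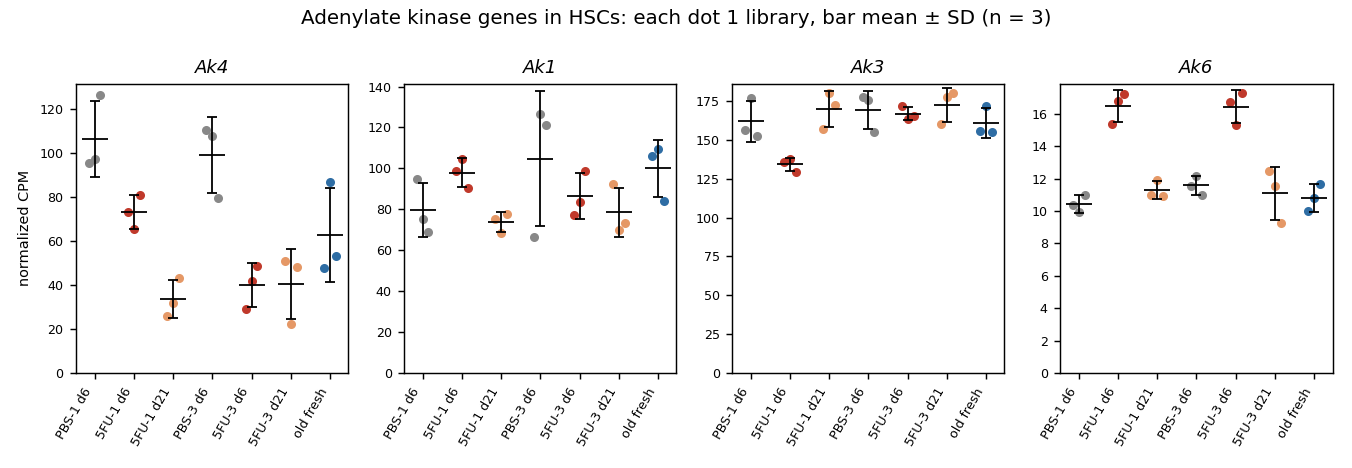
Normalized CPM (y axes, linear, from 0) of 4 adenylate kinase genes in the 7 groups (x axes), with 1 dot per library and mean ± SD (n = 3). Ak4 is below PBS in all 5-FU groups, whereas the means of Ak6 are highest in the 2 groups analysed on day 6 after 5-FU.

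Other adenylate kinases, which like Ak4 exchange phosphates between nucleotides, are set beside it. Per kilobase in PBS-1 d6, Ak3 of the mitochondrial matrix was at 57.6 ± 4.70 normalized CPM, cytosolic Ak1 at 38.2 ± 6.40 and Ak6 at 8.04 ± 0.422, compared with 24.4 ± 3.97 for Ak4 (SD, n = 3). Ak6 rose on day 6 in both rounds, by log2 differences of 0.67 ± 0.102 (edgeR adjusted p = 0.00585) and 0.50 ± 0.10 (edgeR adjusted p = 0.0172). Leaving out any 1 of 4 libraries ended the call in round 3 (adjusted p up to 0.0596).

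Ak3, the closest relative of Ak4, was at 157, 177 and 152 normalized CPM in PBS-1 d6 and at 136, 138 and 129 in 5FU-1 d6. It fell by 0.26 on the log2 scale (SE 0.076, edgeR adjusted p = 0.0485), a call lost in each fit without 1 library (adjusted p from 0.0584 to 0.135). In 5FU-3 d6, where Ak4 was at its lower day 6 level, Ak3 was at 172, 164 and 165 against 177, 175 and 155, with an edgeR adjusted p of 0.854. Neither Ak3 nor Ak6 passed the test on day 21 or in old fresh. Ak1 did not pass it in any comparison, Ak5 stayed at or below 3.92 normalized CPM, and the means of Ak7, Ak8 and Ak9 in PBS-1 d6 were at most 0.205 normalized CPM per kilobase.

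Beyond the members, 71 other regulators and targets of HIF were listed from general knowledge of the pathway, with earlier results of these data known. In 5FU-1 d6, 57 were tested, of which 12 rose (21.1%, against 11.5% of all genes tested), 9 fell (15.8%, against 10.6%) and 36 did not pass the test. Their median log2 difference was 0.08, and that of all genes was -0.00056. The 16 genes of glucose and lactate metabolism divided into 7 that rose (Hk2, Aldoa, Gapdh, Pgk1, Pgam1, Eno1 and Ldha), 1 that fell (Aldoc) and 8 that did not pass, with a median of 0.16. Of 13 regulators tested, Cul2 and Eloc, components of the VHL ligase complex, rose, and Hif3a and Cited2, known as inhibitors of HIF action, fell. The 28 remaining targets divided into 3 that rose (Higd1a, Cox4i2 and Angptl4) and 6 that fell (Mxi1, Kdm3a, Kdm4b, Vldlr, Insig2 and Ccng2).

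Hk2, which traps glucose as a phosphate, rose from 17.8, 14.6 and 16.5 normalized CPM in PBS-1 d6 to 28.7, 32.5 and 30.6 in 5FU-1 d6 (log2 difference 0.92 ± 0.104, edgeR adjusted p = 0.00254). Gapdh rose by 0.62 ± 0.080 (edgeR adjusted p = 0.00357), and Cox4i2, a subunit of cytochrome oxidase, rose from 1.00, 1.5 and 1.42 to 5.80, 5.51 and 5.04 (2.07 ± 0.283, edgeR adjusted p = 0.00419). In the other direction, the aldolase gene Aldoc fell from 44.5, 41.8 and 34.9 to 18.8, 17.7 and 18.1, by 1.14 on the log2 scale (SE 0.105, edgeR adjusted p = 0.00138). The histone demethylase gene Kdm4b fell by 0.75 (SE 0.098, edgeR adjusted p = 0.00374), and Hif3a fell from 23.9, 23.6 and 24.7 to 10.2, 4.85 and 7.13, by 1.69 (SE 0.238, edgeR adjusted p = 0.00443). These 6 calls held under every setting, as did 12 of the 21 calls in all.

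In 5FU-3 d6, 60 of the listed genes were tested, of which 9 rose (15%, against 9.84% of all genes tested), 5 fell (8.33%, against 8.3%) and 46 did not pass. Their median log2 difference was 0.03, and that of all genes was -0.01. Of the glucose and lactate genes, 5 rose (Hk2, Gapdh, Eno1, Ldha and the lactate exporter gene Slc16a3), and 2 fell (Aldoc and the glucose transporter gene Slc2a1). Cul2, Higd1a, Angptl4 and Tfrc also rose, and Hif3a, Cited2 and Lox also fell. Of the 14 calls, 7 held under every setting.

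Ldha, which interconverts pyruvate and lactate, rose from 941, 953 and 917 normalized CPM in PBS-3 d6 to 1390.2, 1334 and 1316 in 5FU-3 d6 (log2 difference 0.52 ± 0.055, edgeR adjusted p = 0.00282). Gapdh rose by 0.53 ± 0.072 (edgeR adjusted p = 0.00545) and Higd1a, a mitochondrial protein of hypoxia tolerance, by 0.50 ± 0.072 (edgeR adjusted p = 0.00616). Aldoc fell from 54.6, 59.6 and 51.1 to 18.6, 23.8 and 11.1, by 1.64 (SE 0.252, edgeR adjusted p = 0.00752). Cited2 fell by 0.41 (SE 0.079, edgeR adjusted p = 0.0153), a call lost without replicate 3 of 5FU-3 d6 (adjusted p = 0.0512). Lox, a collagen crosslinking enzyme gene, was at 7.81, 1.12 and 4.34 in PBS-3 d6, and a single count was present in 5FU-3 d6 (edgeR adjusted p = 0.00635, and 0.0569 in the fit of 21 libraries). In PBS-1 d6 Lox ranged from 0 to 3.80, and the summed stromal markers were below PBS on day 6 after 5-FU in both rounds. In round 3 the lower sum came from Pdgfrb, with a mean of 36.6 in PBS-3 d6 and 11.8 in 5FU-3 d6. The means of Lepr, Col1a1, Col1a2 and Adipoq were higher in 5FU-3 d6 than in PBS-3 d6. Hif3a was at 11.9, 17.7 and 18.0 in PBS-3 d6 and 4.33, 3.05 and 7.63 in 5FU-3 d6, and its call was lost without any 1 of 3 libraries (adjusted p up to 0.0590).

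**Figure D4:**
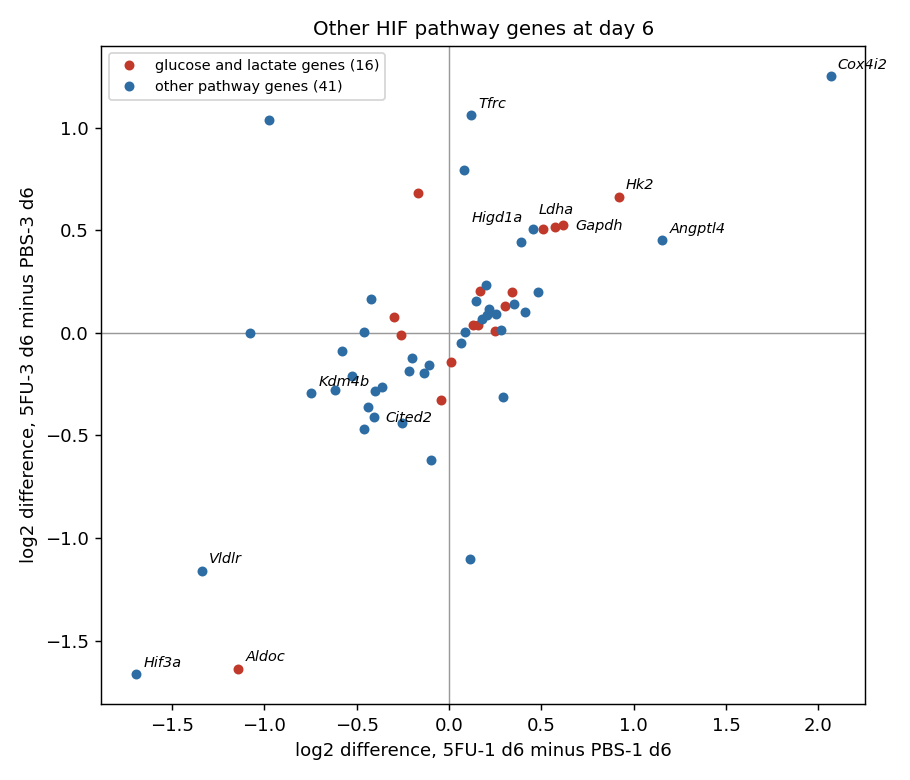
Log2 differences of 57 other HIF pathway genes tested in both rounds, 5FU-1 d6 minus PBS-1 d6 (x axis) against 5FU-3 d6 minus PBS-3 d6 (y axis). Red dots are 16 glucose and lactate genes and blue dots 41 other genes, and Hk2, Gapdh and Ldha lie above 0 while Aldoc and Hif3a lie below 0 on both axes.

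For the difference between rounds, 0 of 61 listed genes passed the edgeR test, with 9 at an unadjusted p of 0.05 (14.8% of all genes) and 2 by DESeq2 (5.52% of all genes). In 5FU-1 d21, 0 of 58 passed by edgeR, 7 were past an unadjusted p of 0.05 (13.3% of all genes) and 3 were called by DESeq2 (5.74%). In 5FU-3 d21, 0 of 59 passed by edgeR, 14 were past an unadjusted p of 0.05 and 3 were called by DESeq2, beside 13.7% and 4.69% of all genes. In old fresh, 0 of 61 passed by edgeR, with 4 at an unadjusted p of 0.05 and 2 by DESeq2, beside 11.2% and 4.43% of all genes. Hk2 in 5FU-1 d21, for example, was at 11, 14.1 and 13.6 normalized CPM, and Aldoc at 42.4, 41.8 and 39.9, beside the 26.0, 31.6 and 43.2 of Ak4 in the same libraries.

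Among 12044 genes with a mean of at least 1 CPM, those whose log2 levels followed Ak4 most closely over the 21 libraries were Plekhg6 (Pearson r = 0.80), Serpinf1 (0.80), Cpxm1 (0.80), Mettl24 (0.79) and Kazald1 (0.78). The means of Kazald1 were 34.2 normalized CPM in PBS-1 d6, 16.6 in 5FU-1 d6, 9.01 in 5FU-1 d21, 32.1 in PBS-3 d6, 8.49 in 5FU-3 d6, 14.7 in 5FU-3 d21 and 20.1 in old fresh. Serpinf1 was at 32.7 in PBS-1 d6, 15.5 in 5FU-1 d21 and 14.2 in 5FU-3 d6. Of the other members, Vegfa had the highest correlation with Ak4 (r = 0.60, rank 114 of 12044) and Epas1 the next (0.23), while Ndrg1 was at -0.13 and Egln1 at -0.32. The 21 libraries share groups and preparation, and these correlations are a description.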

How the data were processed

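Libraries were prepared with a SMART-Seq v4 kit and Nextera XT and sequenced as single-end reads of 75 bases. The authors aligned reads to mm10 with TopHat2 (2.0.13 in the submitters' processing notes), quantified them with Cufflinks 2.2.1 (Cuffdiff), and deposited raw read counts per gene symbol (21000 symbols). The counting program is not given in the sources used here.

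From these counts, levels were computed as TMM-normalized CPM over 21 libraries (edgeR 4.0.16, R 4.3.3). Each comparison was fitted on its own libraries, and the difference between rounds on 12, with filterByExpr, TMM and edgeR's quasi-likelihood F test, adjusted by Benjamini-Hochberg over all genes kept, at 0.05. The SE is the absolute log2 difference divided by the square root of F. P-values measure the spread between 3 libraries a group. The steps were tested on simulated data.

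The members and lists were chosen with earlier results of these data known. Named genes are the 10 members, their paralogs, per comparison the 3 listed genes with the smallest adjusted p in each direction without overlap of groups, and the 5 genes most like Ak4 by Pearson correlation of log2(CPM + 0.5). Other genes are named as parts of counts, and 1 paralog is not reported here.

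Positions, lengths and shared windows come from GENCODE M21 (GRCm38), and promoters from RefSeq. Alternatives were RLE factors, library size only, no filter, DESeq2 1.42.0, a replicate block, 1 fit of 21 libraries, and leaving out each library. PBS-3 d6 as control for 5FU-1 d21 was added after seeing the data. Pairs of libraries in a group differed by 16.5 to 36.3 times the variance of read sampling, so none was a copy.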

Additional observations from a re-analysis of the deposited data

Results flagged for a closer look

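Ndrg1 differed between rounds of treatment. Its log2 difference between 5-FU and PBS on day 6 was -1.57 ± 0.127 after 1 administration and -0.60 ± 0.072 after 3. The second minus the first was 0.98 (SE 0.144) in the fit with a term for the change of the 5-FU difference between rounds. It was between 0.86 and 1.05 when any 1 library was left out. The level in 5FU-1 d6 (11.4 to 15 normalized CPM) lay below that in 5FU-3 d6 (32.5 to 34.3), and PBS-1 d6 (37.7 to 44.4) also lay below PBS-3 d6 (49.6 to 51.8). Because the levels in these groups chose the gene, this is a description, and rounds also differ in the age of the mice and in the suffix of the library names, which cannot be told apart from the number of administrations.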

How the results depend on the processing

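The member differences changed little: of 780 values under alternatives, 774 moved by less than 1 SD and 6 by more, and no direction of a called value was reversed. The 6 were Epas1 without single libraries, Ndrg1 in 5FU-3 d6 with library size only (-0.70), and Vhl, Vegfa and Ndrg1 with PBS-3 d6 as control of 5FU-1 d21. Counts of calls depended more on the setting, and the cause was not tested.

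All genes called numbered 2827 in 5FU-1 d6 (1563 to 1947 without 1 library) and 2310 in 5FU-3 d6 (1231 to 1582, and 1509 with the replicate block). For the difference between rounds they numbered 86 (38 to 170 without 1 library, 715 by DESeq2, 55 with the block), and in 5FU-1 d21 28 (1 to 32 without 1 library, 83 with library size only, 725 by DESeq2, 3 with the block, 257 in the fit of 21 libraries, 5 with PBS-3 d6 as control). In 5FU-3 d21 they numbered 6 (1 to 4 without 1 library, 3 with RLE factors, 15 with library size only, 592 by DESeq2, 0 with the block, 185 in the fit of 21 libraries), and in old fresh 128 (20 to 76, 569 by DESeq2, 30 with the block).

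Of the other HIF pathway genes, 21 were called in 5FU-1 d6 (13 to 20 without 1 library, 13 without replicate 2 of 5FU-1 d6) and 14 in 5FU-3 d6 (10 to 11). DESeq2 called 2 for the difference between rounds (0 to 1 without 1 library by edgeR), 3 in 5FU-1 d21, 3 in 5FU-3 d21 and 2 in old fresh, and the fit of 21 libraries called 1 in 5FU-3 d21 and 1 in old fresh. Without length scaling, Arnt ranked above Vegfa, Ndrg1 above Bnip3, and Egln1 above Egln3.

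Replicate numbers did not pair the samples (correlations from -0.0478 to 0.0688). As a block they ended the calls of Ak3 and Vegfc in round 1 on day 6, Ak6 and Cited2 in round 3, and Ndrg2 in old fresh (adjusted p from 0.0522 to 0.0852). With 3 libraries a group, small differences of members at a few CPM, such as Epas1, were not detectable.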
